A study of Mus musculus with 50 samples.

Results

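The microglial transcriptome of 7 adult control mice at postnatal day 200 (P200) was compared with that of 12 neonatal control mice at postnatal day 9 (P9). These 19 mice were chosen by their labels from the 50 mice of the series. All were male C57BL/6J mice, an inbred laboratory strain, that had been raised by their dams with standard bedding and nesting material (control rearing, CTR). The P9 CTR mice were untreated, and the P200 CTR-PBS mice had been injected with PBS into the abdomen and were killed 3 h later. Hippocampal microglia were sorted from perfused brains as single viable CD45int CD11b+ cells, and RNA was sequenced as 1 library per mouse. Myelin was removed with Percoll in adult brains alone, and the ages came from separate cohorts of mice. Age therefore cannot be told apart from the PBS injection, the Percoll step or the cohort. The other mice of the series had been raised under early-life stress (ELS) or injected as adults with lipopolysaccharide (LPS), or both. ELS meant limited bedding and nesting material in the first week of life. All 50 mice entered the fit.

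Microglia are the resident macrophages of the brain. They settle in the embryonic brain, multiply there in the first postnatal weeks as rounded, amoeboid cells that take up dying cells and synapses, and then stop dividing and become ramified. Adult cells are known for a homeostatic gene set, with purine receptors, complement proteins and lysosomal enzymes, that depends on signals from transforming growth factor beta (TGF-β) and from the receptor Csf1r. The comparison asked which genes change between these ages without ELS. In sorted bulk RNA, fewer cells of a type and less RNA per cell cannot be told apart.

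The deposited values were raw read counts per gene, with a total per mouse of 13605733 to 31020979 at P9 and 13996535 to 28616316 at P200. The totals of the ages did not separate (exact permutation test of the mean, two-sided, p = 0.947, 50388 assignments). Levels are given as CPM, counts scaled to the same total in every mouse after normalization for library size and composition by TMM. A count was found for 18451 to 21100 genes per P9 mouse and for 12854 to 19727 per P200 mouse (exact permutation p = 0.00141, adjusted p over 5 library measures = 0.00176). The 10 most abundant genes took 9.71% to 11.5% of counts at P9 and 13.9% to 16.5% at P200 (exact permutation p = 1.98e-05, the smallest these assignments can give, adjusted p = 9.92e-05). Mitochondrial transcripts took 0.949% to 1.64% at P9 and 0.616% to 0.785% at P200 (exact permutation p = 0.000159, adjusted p = 0.000265). The part of these shares in the results was not tested.

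The adult mouse 1.1 stood apart, with 12854 genes detected against 17424 to 19727 in the other 6. In it 232 genes were at 0 that averaged at least 10 CPM in the other 6 adults, among 7898 genes at that level. No other adult and no P9 mouse had such a gene. Where leaving it out changes a count of calls in a list described here, the count without it is given too. Its 0 values can widen the adult range, so that the lowest adult value of a gene is often that of mouse 1.1.

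The cells carried the defining genes of microglia at both ages. P2ry12, the ADP receptor of resting microglia, ranged from 7626 to 9107 CPM with a median of 8438 at P9, and from 12491 to 16156 CPM with a median of 14784 at P200. Csf1r, the receptor for the survival factor CSF1, was at medians of 8749.5 and 7944 CPM, and its log2 fold change of -0.05 was not significant (adjusted p = 0.894 by edgeR's quasi-likelihood test). The labelled cell type was thus found in every mouse, while other cells were represented unevenly, as given near the end.

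A gene was called changed between P200 CTR-PBS and P9 CTR mice when its adjusted p by edgeR's quasi-likelihood test was under 0.05 and its log2 fold change lay beyond 1 in either direction. Of 16696 genes tested, 1333 (7.98%) were higher and 3083 (18.5%) lower at P200, so that 26.4% were called and 69.8% of these were lower. Without mouse 1.1, 1279 genes (7.66%) were higher and 2962 (17.7%) lower, and 1098 of the 1333 and 2782 of the 3083 were still called. The falls were the larger changes, with a median of -3.27 on the log2 scale against 1.54 for the rises. A change of more than 5 on the log2 scale was found for 714 falls and 20 rises. The median over all tested genes was -0.09.

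The change in the mice themselves was as clear-cut in part of these genes only. Every adult was above every P9 mouse for 6.56% of all tested genes and below every P9 mouse for 10.5%. The ages were separate in this way for 576 of the 1333 higher genes (43.2%) and for 1498 of the 3083 lower genes (48.6%). Among the lower genes, 300 had no count in any adult mouse, and 643 averaged under 1 CPM at both ages. At levels from 100 to 1000 CPM, by the mean of the age where a gene was higher, the calls were nearer to balance, with 155 higher and 188 lower of 1802 genes. Above 1000 CPM, 18 of 124 genes were higher and 11 lower.

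Protein-coding genes and long non-coding RNAs differed in their split. Of 13085 protein-coding genes, 823 were higher (6.29%) and 2745 lower (21.0%). Of 1924 long non-coding RNA genes, 293 were higher and 209 lower (10.9%). Malat1, an abundant nuclear non-coding RNA, took 0.206% to 0.761% of counts at P9 and 0.734% to 0.978% at P200 (exact permutation p = 3.97e-05, adjusted p = 9.92e-05). It rose by 1.31 on the log2 scale (SE 0.22, adjusted p = 3.57e-06 in edgeR's quasi-likelihood test), from a median of 3619 to 8484 CPM. The annotated gene Gm37376 lies within the bounds of Malat1 on chromosome 19 on the opposite strand, and its reads could not be told apart from those of Malat1, since no strand setting of the counting was given.

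The mice raised under ELS gave a second measurement of the same age difference in other animals, 13 at P9 and 6 at P200 with PBS. They came from the same cohorts, with the same injection and Percoll step in adults, and were fitted in the same model. This measurement therefore shares the limit that age cannot be told apart from these. Of the 1333 genes higher in CTR, 847 (63.5%) were called higher in ELS mice, against 8.68% of all genes, and 1307 (98.0%) had the same direction. Of the 3083 lower genes, 2270 (73.6%) were called lower in ELS mice, against 17.5% of all genes, and 2988 (96.9%) had the same direction. The share of all genes with the same direction was not taken. A difference between the changes in ELS and CTR mice, tested as an interaction in edgeR's quasi-likelihood test, was called for 5 genes, and 1712 had an unadjusted p under 0.05.

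**Figure D1:**
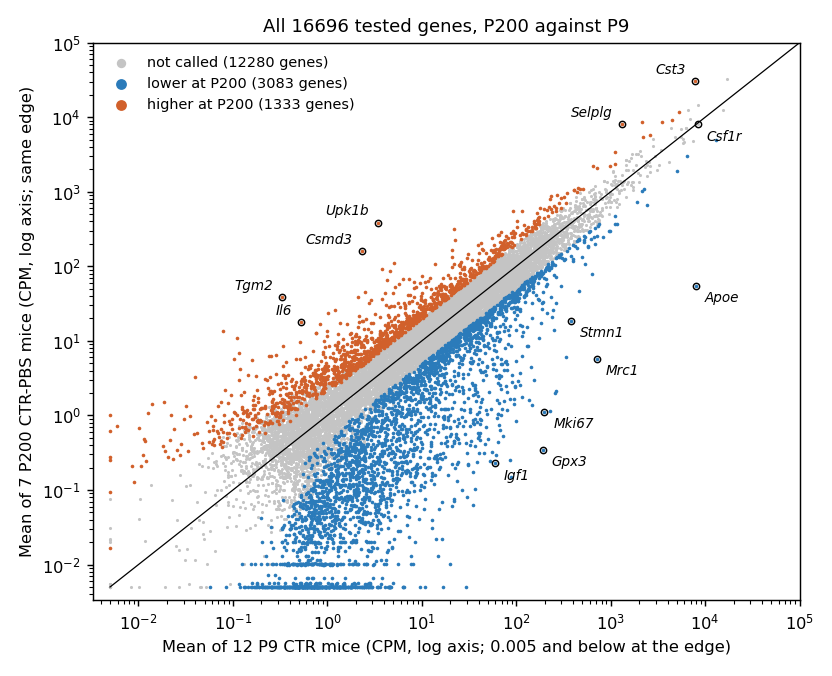
Mean CPM of each of the 16696 tested genes in the 12 P9 CTR mice (x axis, log scale) and the 7 P200 CTR-PBS mice (y axis, log scale), with the 3083 genes called lower at P200 in blue, the 1333 called higher in orange and the others in grey, and the line of equal means. The blue cloud reaches far below the line, while the orange points stay closer to it apart from a few genes such as Upk1b, Csmd3 and Tgm2.

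By counts per kilobase of exon, scaled to the same total in every mouse (TPM), the top of the protein-coding list changed places. At P9 the gene with the highest mean was Tmsb4x, which encodes the actin-binding peptide thymosin beta 4, with 22526 ± 3575 TPM (SD, n = 12), followed by Cst3 with 21939 ± 1922 and Ftl1, the ferritin light chain, with 18687 ± 2520. At P200 the highest was Cst3, which encodes the protease inhibitor cystatin C, with 78725 ± 10682 TPM (SD, n = 7), and P2ry12 was among the 5 highest with 21235 ± 1442. Apoe, which encodes the lipid carrier apolipoprotein E, was among the 10 highest at P9 with 10034 ± 1625 TPM (SD, n = 12). Tmem119, a membrane protein used to tell microglia from other macrophages, was among the 5 highest at P200 with 12443 ± 945 TPM (SD, n = 7). Actb, Ftl1, Apoe, Lgmn, Psap and mt-Cytb were among the 10 highest at P9 alone, and Tmem119, Ctsd, C1qa, Cd81, Ctss and Cx3cr1 at P200 alone.

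Homeostatic microglial genes were on the whole higher in adults, and part of them passed the test. Of 37 members tested, 10 were called higher and 0 lower, against 7.98% and 18.5% of all genes, and 30 had a positive log2 fold change. The list's median log2 fold change was 0.66, against -0.09 over all genes. Every adult was above every P9 mouse for 18 of the 37, against 6.56% of all genes. The summed CPM of the list ranged from 75419 to 111315 at P9 and from 169353 to 195016 at P200, without overlap. Without mouse 1.1, Crybb1 was also called lower, at -1.03 in place of -0.93. In ELS mice 7 were called higher and 1 lower. The members that rose were Selplg, Tmem119, Tgfbr1, Cst3, Ctss, Slc2a5, Gpr34, Gpr183, Entpd1 and Upk1b.

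Selplg, the ligand through which leukocytes bind selectins, ranged from 932 to 1614 CPM with a median of 1316 at P9 and from 7299 to 9273 CPM with a median of 7800.1 at P200, a rise of 2.61 on the log2 scale (SE 0.13, adjusted p = 2.42e-22 in edgeR's quasi-likelihood test). Tmem119 ranged from 1249.6 to 2558 CPM with a median of 2224 at P9 and from 7676 to 9453 CPM with a median of 8413 at P200, and rose by 2.01 (SE 0.20, adjusted p = 5.64e-12 in edgeR's quasi-likelihood test). Every adult was above every P9 mouse for both genes, and the lowest adult had over 7000 CPM. Cst3 ranged from 5383 to 9569.7 CPM with a median of 7865 at P9 and from 24679.7 to 40444 CPM with a median of 29837 at P200. Its log2 fold change was 1.94 (SE 0.14, adjusted p = 7.02e-17), and it was 1.86 without mouse 1.1, the mouse with the highest value. Tgfbr1, the type 1 receptor for TGF-β, rose by 1.61 (SE 0.21, adjusted p = 1.22e-08 in edgeR's quasi-likelihood test), from a range of 594 to 1588 CPM to one of 2618 to 4747 CPM.

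The other members that rose were a sugar transporter, a nucleotidase, lipid receptors and a protease. Slc2a5, a fructose transporter, rose by 1.75 on the log2 scale (SE 0.16), from a median of 682 to 2203 CPM. Entpd1, the surface enzyme that degrades ATP and ADP, rose by 1.11 (SE 0.10), from 1121 to 2424 CPM, and the lysophosphatidylserine receptor Gpr34 by 1.15 (SE 0.18), from 2512 to 5692 CPM. Gpr183, a receptor for oxysterols, rose by 1.02 (SE 0.09) and Ctss, the lysosomal protease cathepsin S, by 1.14 (SE 0.14). In ELS mice Gpr34, Gpr183 and Ctss were not called, with log2 fold changes of 0.68, 0.80 and 0.78, and Cst3 was called with 1.39. The interaction was not called for any of these 4 genes.

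Several defining genes were higher in every adult without reaching the threshold of 1. P2ry12 had a log2 fold change of 0.77 (SE 0.14, adjusted p = 9.72e-06 in edgeR's quasi-likelihood test) and P2ry13, a related ADP receptor, of 0.85 (SE 0.08), and for both genes the ages did not overlap. Trem2, a lipid-sensing receptor, had 0.66 (SE 0.09), again without overlap, and Cx3cr1, the receptor for neuronal fractalkine, had 0.47 (SE 0.17) with overlapping ages. Fcrls, Siglech and Sparc, other genes typical of microglia, were at -0.39 (SE 0.11), -0.06 (SE 0.14) and 0.09 (SE 0.13).

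**Figure D2:**
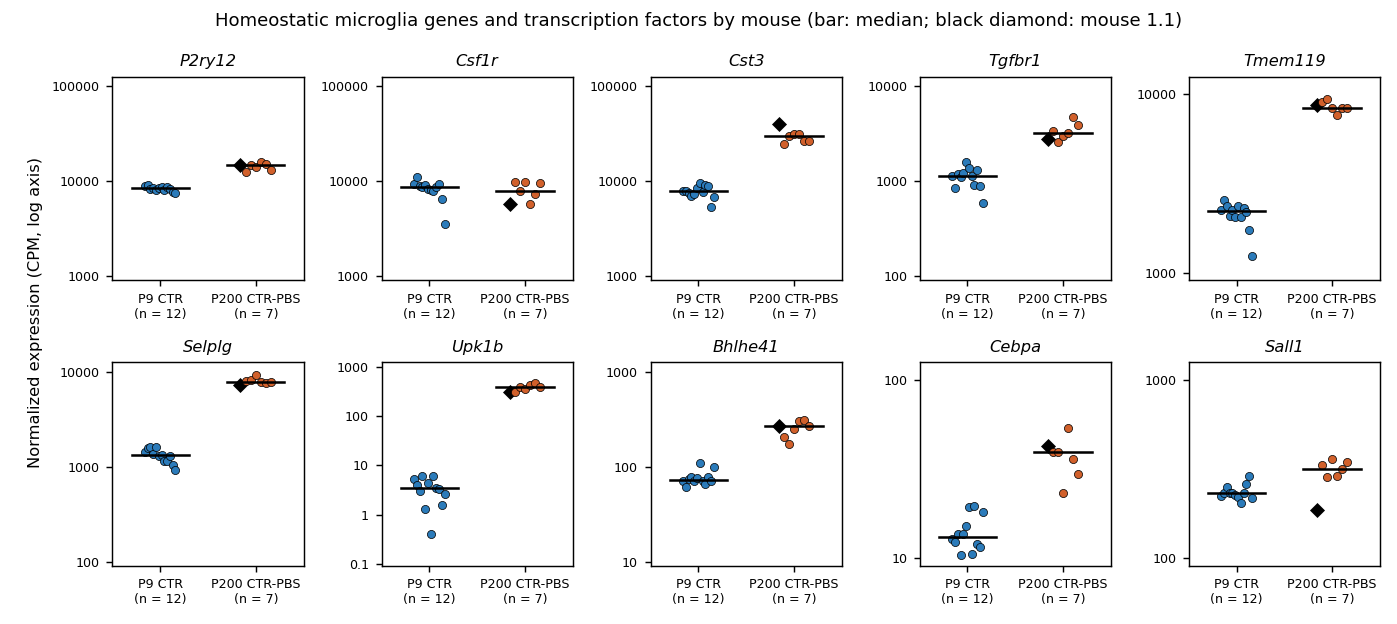
CPM (log axes) in each of the 12 P9 CTR mice (blue) and 7 P200 CTR-PBS mice (orange, with mouse 1.1 as a black diamond) for 7 homeostatic genes and the transcription factors Bhlhe41, Cebpa and Sall1, with the median of each age as a bar. The ages do not overlap for P2ry12, Cst3, Tgfbr1, Tmem119, Selplg, Upk1b, Bhlhe41 and Cebpa, and they overlap for Csf1r and Sall1, where mouse 1.1 is the lowest adult.

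Among 22 transcription factors of the myeloid lineage, 4 were called higher and 0 lower, with a median log2 fold change of 0.59. Bhlhe41, a repressor that also takes part in the circadian clock, ranged from 61.7 to 109 CPM with a median of 72.7 at P9 and from 171 to 309.9 CPM with a median of 269 at P200. It rose by 1.72 on the log2 scale (SE 0.23, adjusted p = 1.41e-08 in edgeR's quasi-likelihood test), and no adult was as low as any P9 mouse. Cebpa, a factor of myeloid differentiation (1.41, SE 0.20), and Sall3, a zinc finger factor related to Sall1 (1.37, SE 0.13), rose as well. Sall1, which maintains microglial identity, was not called at 0.36 (SE 0.13, adjusted p = 0.0255), and Irf8 (0.92, SE 0.14) and Spi1, which encodes PU.1 (-0.40, SE 0.27, adjusted p = 0.244), were not called either. Without mouse 1.1, 5 of the 22 were called higher. In ELS mice 7 of the 22 were called higher, Bhlhe41, Cebpa and Sall3 among them, against 8.68% of all genes.

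Among genes with separate ages and a mean log2 CPM of at least 1 over the 19 mice, the 10 largest rises started from low levels at P9. Upk1b, a tetraspanin first described in bladder epithelium, ranged from 0.399 to 6.2 CPM with a median of 3.42 at P9 and from 309 to 472 CPM with a median of 394 at P200, a rise of 6.79 on the log2 scale (SE 0.34, adjusted p = 1.46e-22 in edgeR's quasi-likelihood test). Csmd3, a large membrane protein with complement-control domains, ranged from 0.806 to 4.53 CPM at P9 and from 134 to 195 CPM at P200, and rose by 6.12 (SE 0.37, adjusted p = 2.86e-19). Both were low in all 12 P9 mice and high in all 7 adults. They were followed by Mlph, a linker of organelles to the actin motor myosin (4.57, SE 0.29), Chst8, a sulfotransferase (4.51, SE 0.47), Thrsp, a regulator of lipid synthesis that responds to thyroid hormone (4.44, SE 0.27), and the unnamed transcript Gm42944 (4.42, SE 0.59). The next were the adhesion molecule Jam3 (4.22, SE 0.37), the B-cell survival factor gene Tnfsf13b (4.16, SE 0.29), the serine protease Klk8 (3.93, SE 0.19) and Lrrc3 (3.85, SE 0.20). For these 10 genes the change in ELS mice was between 3.38 and 6.43 and was called in every case.

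The promoters of the 3 genes with the largest rise among these 10 for which one was at hand are shown as the start regions of genes that were low at P9 and higher in every adult. The sequences are RefSeq's, 300 bases around the annotated gene start in the build GRCm38.p6, read on the strand of the gene. Capitals mark an E-box (CACGTG) or the core bound by PU.1 (GAGGAA, also on the other strand as TTCCTC).
Mlph (chr1:90914850-90915149, plus strand): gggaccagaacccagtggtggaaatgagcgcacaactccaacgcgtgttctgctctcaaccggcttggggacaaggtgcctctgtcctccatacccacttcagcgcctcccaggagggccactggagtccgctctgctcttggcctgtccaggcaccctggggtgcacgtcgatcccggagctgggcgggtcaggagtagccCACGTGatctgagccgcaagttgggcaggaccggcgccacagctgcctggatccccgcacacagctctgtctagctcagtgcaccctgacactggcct
Chst8 (chr7:34812662-34812961, minus strand): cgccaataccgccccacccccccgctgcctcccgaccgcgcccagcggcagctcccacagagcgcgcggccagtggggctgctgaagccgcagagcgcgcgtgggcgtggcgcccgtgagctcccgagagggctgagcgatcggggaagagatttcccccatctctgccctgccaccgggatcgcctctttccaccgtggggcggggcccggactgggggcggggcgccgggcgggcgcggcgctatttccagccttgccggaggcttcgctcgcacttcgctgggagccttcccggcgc
Thrsp (chr7:97417501-97417800, minus strand): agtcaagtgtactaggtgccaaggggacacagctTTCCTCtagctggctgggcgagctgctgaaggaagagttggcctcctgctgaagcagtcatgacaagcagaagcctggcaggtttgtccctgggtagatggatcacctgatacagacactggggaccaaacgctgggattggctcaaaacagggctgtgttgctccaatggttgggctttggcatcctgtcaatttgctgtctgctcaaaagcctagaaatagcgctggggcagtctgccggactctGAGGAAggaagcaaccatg

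The promoter of Mlph held 1 E-box, that of Thrsp 2 PU.1 cores, and that of Chst8 neither. The letters are common, so that these matches describe the sequences and no more. The E-box was found in 10.0% of 11284 promoters of tested genes and in 8.21% of 792 promoters of genes called higher. The PU.1 core was found in 27.1% of all, in 28.2% of those called higher and in 13 of 26 promoters (50.0%) of the homeostatic list. Upk1b and Csmd3 were not included. The motifs were chosen with the sequences in view, so the shares are given without a test.

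Genes of amoeboid postnatal microglia fell. Of 36 members of this list, which also contains genes of disease-associated microglia, 20 were called lower and 2 higher (55.6% and 5.56%). Over all genes, 18.5% were lower and 7.98% higher. The list's median log2 fold change was -1.08. Apoe ranged from 6269 to 12571 CPM with a median of 7655 at P9 and from 23.3 to 103 CPM with a median of 43.6 at P200, and fell by 7.21 on the log2 scale (SE 0.33, adjusted p = 5.83e-24 in edgeR's quasi-likelihood test). It was thus among the most abundant transcripts of every P9 mouse and at 103 CPM or less in every adult. Spp1, the matrix protein osteopontin, fell by 7.61 (SE 0.59), from a range of 85.5 to 319 CPM to one of 0 to 2.35 CPM. Igf1, a growth factor for neurons and oligodendrocytes, fell by 7.89 (SE 0.54, adjusted p = 2.82e-17 in edgeR's quasi-likelihood test), from 44.3 to 86.5 CPM at P9 to at most 0.739 CPM at P200.

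Further falls on that list were those of Gpnmb, a lysosomal glycoprotein (-7.94, SE 1.01), Lpl, which releases fatty acids from lipoproteins (-5.77, SE 0.37), and Fabp5, which carries fatty acids within cells (-4.90, SE 0.50). The 2 that rose were the chemokines Ccl4, from a median of 23.5 to 233 CPM (3.29, SE 0.29), and Ccl3, from 43.3 to 91.7 CPM (1.14, SE 0.33, adjusted p = 0.00436 in edgeR's quasi-likelihood test). The ages did not overlap for Ccl4 and overlapped for Ccl3, which was at 0.99 and not called without the adult mouse 5.1. Members of the list without a call included Clec7a (0.13, SE 0.23), Itgax (-0.25, SE 0.48), Lgals3 (0.12, SE 0.42) and Cd63 (-0.56, SE 0.14), which are also induced in diseased brains. In ELS mice 20 were called lower and 1 higher.

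**Figure D3:**
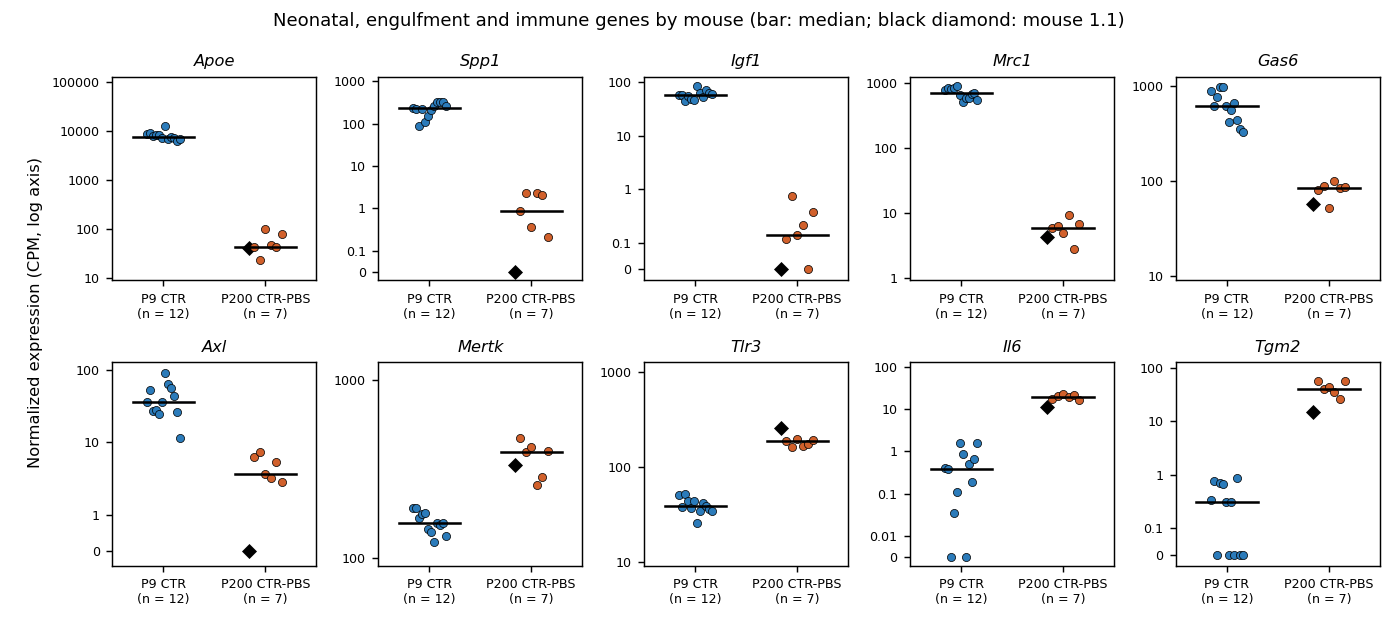
CPM (log axes, values of 0 at the tick labelled 0) in each of the 12 P9 CTR mice (blue) and 7 P200 CTR-PBS mice (orange, with mouse 1.1 as a black diamond) for 10 genes, with the median of each age as a bar. Apoe, Spp1, Igf1, Mrc1, Gas6 and Axl are lower in every adult, and Mertk, Tlr3, Il6 and Tgm2 are higher in every adult, than in any P9 mouse.

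Genes of lipid synthesis went the same way. Of 24 genes of cholesterol and fatty acid synthesis, 15 were called lower (62.5%) and 0 higher, with a median log2 fold change of -1.29. Their summed CPM ranged from 738 to 1055 at P9 and from 374 to 440.3 at P200. Sqle, which encodes the enzyme squalene epoxidase, fell by 4.58 on the log2 scale (SE 0.44), from a median of 37.7 to 1.21 CPM, and Hmgcs1, which encodes a synthase upstream in the same pathway, by 1.37 (SE 0.17), from 86.7 to 33.9 CPM. Genes of lipid efflux and storage were mixed. Of 17 tested, 1 rose and 7 fell (5.88% and 41.2%), and their median of -0.15 was near the -0.09 of all genes. Of 31 lysosomal genes 3 rose (9.68%) and 5 fell (16.1%), close to the 7.98% and 18.5% of all genes. Ctsb, the protease cathepsin B, fell by 1.37 (SE 0.11), from a median of 13345 to 4898 CPM, and Ctsl by 1.08 (SE 0.11), while Ctsh rose by 1.36 (SE 0.10), from 403 to 1072 CPM.

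Among all lists examined, mitosis had the largest share of members called lower. Of 56 genes of mitosis and chromosome segregation, 54 were called lower and 1 higher, and every adult was below every P9 mouse for 54 of the 56, against 10.5% of all genes. The list's median change was -5.29 on the log2 scale, and 18.5% of all genes were called lower. Their summed CPM ranged from 2793 to 5370.5 at P9 and from 234 to 284 at P200. Mouse 1.1 was not low in this sum, at 284 CPM, but had counts for 24 of the 56 genes, against 47 to 54 in the other adults. Of 44 genes of DNA replication and S phase, 39 were called lower and 0 higher, with a median of -2.57, and their summed CPM went from a range of 2507 to 3598 to one of 580.2 to 678. Without mouse 1.1, 40 replication genes were called lower. The numbers in ELS mice were 54 lower and 1 higher for mitosis and 39 lower for replication.

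Mki67, the proliferation antigen Ki-67, ranged from 62.1 to 299 CPM with a median of 214 at P9 and from 0 to 3.28 CPM with a median of 0.428 at P200, and fell by 7.39 on the log2 scale (SE 0.76, adjusted p = 1.94e-11 in edgeR's quasi-likelihood test). Within P9, the 5 mice whose numbers begin with 51 and 52 had 62.1 to 149.96 CPM and the other 7 had 199 to 299 CPM, a split seen in the values and not tested. The summed mitosis list did not separate these mice. Top2a, the topoisomerase of dividing cells, fell by 7.01 (SE 0.49), from a median of 277 to 2.22 CPM. Cdk1, the mitotic kinase, fell by 5.41 (SE 0.38), from a range of 90.1 to 144 CPM to one of 0 to 3.89 CPM, and its partner Ccnb1 by 6.76 (SE 0.43). Adults were near 0 for these genes, and mouse 1.1 was at 0 for Mki67, Cdk1 and Ccnb1. Cdc25c, the phosphatase that activates Cdk1, ranged from 8.17 to 29.9 CPM at P9 and had no count in any of the 7 adults, so that it was at least 834.5-fold lower than at P9 (against a floor of 3 counts over the group).

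Replication genes fell over a wider range. Rrm2, the regulated subunit of ribonucleotide reductase, fell by 6.98 (SE 0.47), from a median of 248 to 1.99 CPM, and the other subunit, Rrm1, by 2.58 (SE 0.12), from 227 to 37.1 CPM. Mcm5, a subunit of the replicative helicase, fell by 3.95 (SE 0.30), from 139 to 7.41 CPM. Pcna, the sliding clamp that also serves DNA repair, fell by 1.61 (SE 0.15, adjusted p = 1.78e-12 in edgeR's quasi-likelihood test) and remained at 30.6 to 50.4 CPM in adults. Mcm10 ranged from 10.9 to 30.9 CPM at P9 and was at 0 in all but 1 adult, which had 0.0712 CPM.

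The exceptions within mitosis were Pttg1, the inhibitor of separase known as securin, and Espl1, separase itself. Pttg1 rose by 1.56 on the log2 scale (SE 0.23, adjusted p = 2.65e-07 in edgeR's quasi-likelihood test), from at most 24.7 CPM to at least 38.1 CPM, and was also called higher in ELS mice (1.05). Espl1 was not called (0.24, SE 0.33, adjusted p = 0.596), with medians of 17.5 and 23.9 CPM.

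**Figure D4:**
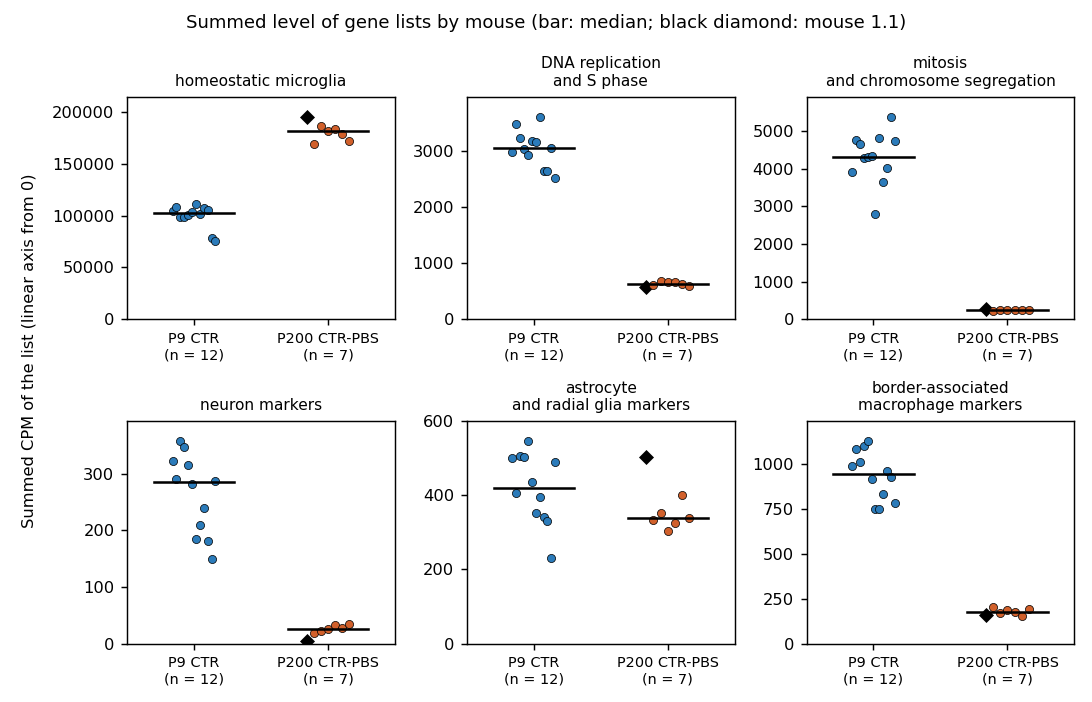
Summed CPM of 6 gene lists (linear axes from 0) in each of the 12 P9 CTR mice (blue) and 7 P200 CTR-PBS mice (orange, with mouse 1.1 as a black diamond), with the median of each age as a bar. The homeostatic sum is higher in every adult, the sums for replication, mitosis, neuron markers and border-associated macrophage markers are lower in every adult, and the astrocyte sum overlaps between the ages.

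Promoters of genes of mitosis often carry a cell cycle homology region and CCAAT boxes, which are read by the MuvB complex and by NF-Y. The promoters of the 3 called genes of mitosis with the largest fall for which one was at hand are shown to give an example of each. They are RefSeq sequences of 300 bases around the gene start in GRCm38.p6, on the strand of the gene, with TTTGAA (cell cycle homology region) and CCAAT, searched on both strands, in capitals.
Hmmr (chr11:40733388-40733687, minus strand): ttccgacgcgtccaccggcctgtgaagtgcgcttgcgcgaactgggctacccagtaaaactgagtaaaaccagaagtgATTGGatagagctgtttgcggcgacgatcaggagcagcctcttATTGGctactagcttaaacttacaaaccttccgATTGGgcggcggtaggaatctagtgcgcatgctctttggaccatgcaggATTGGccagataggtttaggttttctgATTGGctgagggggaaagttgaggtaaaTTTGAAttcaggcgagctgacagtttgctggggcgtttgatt
Ckap2 (chr8:22185770-22186069, minus strand): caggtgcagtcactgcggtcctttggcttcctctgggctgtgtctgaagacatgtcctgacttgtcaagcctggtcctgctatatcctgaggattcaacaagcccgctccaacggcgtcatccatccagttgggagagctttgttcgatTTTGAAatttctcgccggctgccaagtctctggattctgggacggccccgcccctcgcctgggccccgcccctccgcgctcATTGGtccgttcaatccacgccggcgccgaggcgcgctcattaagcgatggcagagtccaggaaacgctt
Mki67 (chr7:135716330-135716629, minus strand): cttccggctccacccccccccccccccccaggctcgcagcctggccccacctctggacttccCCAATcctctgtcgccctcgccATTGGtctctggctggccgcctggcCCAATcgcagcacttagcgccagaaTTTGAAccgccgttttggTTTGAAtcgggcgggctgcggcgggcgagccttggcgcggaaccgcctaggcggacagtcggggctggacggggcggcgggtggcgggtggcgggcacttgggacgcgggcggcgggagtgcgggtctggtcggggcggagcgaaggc

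Hmmr, which encodes a spindle protein, fell by 7.68 on the log2 scale (SE 0.61), from a range of 33.2 to 75.3 CPM to one of 0 to 1.13 CPM, and Ckap2, another spindle protein, by 7.52 (SE 0.75), from a median of 34.2 CPM to a range of 0 to 0.751 CPM. TTTGAA was found in 12.3% of 11284 promoters of tested genes, in 13.3% of 2203 promoters of genes called lower, and in 32 of 44 promoters (72.7%) of genes of mitosis called lower. For replication it was found in 4 of 31 (12.9%). CCAAT was found in 38.9% of all promoters, in 33 of 44 (75.0%) for mitosis and in 18 of 31 for replication. Both motifs stood in 5.22% of all promoters and in 28 of 44 (63.6%) for mitosis. The E2F motif TTCCCGC was found in 8.35% of all promoters, in 11 of 31 (35.5%) for replication and in 1 of 44 (2.27%) for mitosis. These shares are descriptions, and a match is no proof of binding. Spc24 and Cdc25c were not included.

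Control of the cell cycle was less one-sided. Of 14 E2F, DREAM and MYB-MuvB factors, 8 fell (57.1%, against 18.5% of all genes). Among them were E2f1 (-4.93, SE 0.71), E2f8 (-8.43, SE 0.87) and Foxm1 (-4.52, SE 0.81), the activator of genes of mitosis. Of 8 G1 cyclins and kinases 5 fell (62.5%). Ccnd2 fell by 6.15 on the log2 scale (SE 0.74), from a median of 16.9 to 0.0915 CPM, and Cdk6 by 1.38 (SE 0.17), while Ccnd1 (-0.20, SE 0.16, medians 226 and 209 CPM), Ccnd3 (-0.12, SE 0.25) and Cdk4 (-0.18, SE 0.09) were not called. Of 12 inhibitors and quiescence genes, 2 rose and 3 fell (16.7% and 25%, against 7.98% and 18.5% of all genes). Cdkn1a, the inhibitor p21, fell by 2.29 (SE 0.17, adjusted p = 1.02e-15 in edgeR's quasi-likelihood test), from a range of 78 to 115 CPM to one of 14.1 to 28 CPM. Btg2, an antiproliferative gene, rose by 1.52 (SE 0.12), from a median of 98.1 to 285 CPM, and Cdkn1c, the inhibitor p57, rose by 1.85 (SE 0.52) at a low level of 1.48 CPM in the median adult.

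Genes of growth and chromatin followed. Of 19 genes of the fetal growth programme, 13 fell (68.4%) and 1 rose (5.26%), against 18.5% and 7.98% of all genes. Their median log2 fold change was -2.18. Stmn1, which destabilizes microtubules, ranged from 305 to 496 CPM with a median of 363 at P9 and from 14.5 to 20.8 CPM at P200, and fell by 4.35 (SE 0.17, adjusted p = 8.26e-27 in edgeR's quasi-likelihood test). Igf2bp3, a fetal RNA-binding protein, fell by 4.30 (SE 0.25), from a median of 80.3 to 4.11 CPM. Of 23 genes of DNA methylation and heterochromatin, 13 fell (56.5%) and 0 rose. The maintenance methyltransferase Dnmt1 fell by 2.52 (SE 0.28), its guide to replicated DNA, Uhrf1, by 6.00 (SE 0.65), and Ezh2, which methylates histone H3, by 3.37 (SE 0.46).

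Of 20 cytosolic ribosomal protein genes, 9 were called lower (45%) and 0 higher, against 18.5% and 7.98% of all genes. All 20 were negative, with a median change of -0.97 on the log2 scale. Rplp0 fell by 1.22 (SE 0.14), from a median of 1010.3 to 457 CPM. Their summed CPM ranged from 6163 to 12824 at P9 and from 3884 to 7260.3 at P200, so that the ages overlapped. Without mouse 1.1, 12 of the 20 were called, and 19 were called in ELS mice. Of 20 genes of oxidative phosphorylation, 0 were called by edgeR's quasi-likelihood test or by DESeq2, and 1 was called lower without mouse 1.1. The largest fall was -0.92, so that none passed the threshold of 1 whatever its p, and 16 had an unadjusted p under 0.05. All 20 had a negative log2 fold change, with a median of -0.59, and 6 were called lower in ELS mice.

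Among genes with separate ages and a mean log2 CPM of at least 1, the 10 largest falls belonged to Dpysl3, Cdc25c, Mcm10, Crmp1, Ncan, Neil3, Cxcr2, Gpx3, Nedd4 and Sox11, each at 0.824 CPM or less in every adult. Beside the cell cycle they touch antioxidant defence and genes that neurons also use. Gpx3, the secreted glutathione peroxidase, ranged from 158 to 233 CPM with a median of 187 at P9 and from 0 to 0.824 CPM with a median of 0.41 at P200, and fell by 9.08 on the log2 scale (SE 0.54, adjusted p = 1.57e-19 in edgeR's quasi-likelihood test). Cxcr2, a chemokine receptor, ranged from 9.07 to 20 CPM at P9 and was at 0 in all adults but mouse 1.1, which had 0.153 CPM. Dpysl3, a protein of growing axons, ranged from 12 to 41.9 CPM at P9, had no count in any adult and was at least 1471-fold lower. Ncan, the brain proteoglycan neurocan, went from a range of 52.3 to 126 CPM to one of 0 to 0.57 CPM.

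Genes of engulfment changed in both directions. Of 16 receptors and bridging molecules, 10 were called lower (62.5%) and 2 higher (12.5%), against 18.5% and 7.98% of all genes. Without mouse 1.1, 9 of the 16 were called lower, and 7 were called lower in ELS mice. Their median change was -1.66 on the log2 scale. Mrc1, the mannose receptor, ranged from 524 to 909 CPM with a median of 699 at P9 and from 2.79 to 9.4 CPM with a median of 5.95 at P200, and fell by 6.95 (SE 0.33, adjusted p = 2.12e-23 in edgeR's quasi-likelihood test). Gas6, which bridges dying cells to the TAM receptors, fell by 3.01 (SE 0.27), from a range of 329 to 994 CPM to one of 52.9 to 100.1 CPM, and Axl, one of these receptors, by 3.32 (SE 0.62), from a median of 35.6 to 3.68 CPM. Mertk, another TAM receptor, rose 2.30-fold (SE 0.15 on the log2 scale, adjusted p = 2.37e-09 in edgeR's quasi-likelihood test), from a range of 124 to 192 CPM to one of 259 to 473 CPM. Itgav, an integrin subunit that binds the bridging protein Mfge8, rose by 1.08 (SE 0.19), and Mfge8 fell by 1.37 (SE 0.25). Pros1, the other TAM ligand, was not called (0.33, SE 0.13), with medians of 1066 and 1378 CPM.

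Of 15 complement genes, 2 rose and 4 fell (13.3% and 26.7%, against 7.98% and 18.5% of all genes), and the list's median of -0.02 became positive, at 0.04, when the counts were scaled to the upper quartile, and at 0.08 under the stricter filter. The receptors for the fragment C5a rose, C5ar1 by 1.65 on the log2 scale (SE 0.15), from a median of 161 to 492 CPM, and C5ar2, from 30.4 to 96.8 CPM. C3, the central complement protein, fell from a median of 4.11 CPM to 0 in all adults but one (-6.27, SE 1.29, adjusted p = 9.83e-05 in edgeR's quasi-likelihood test). C1qa, a chain of the initiator of the classical pathway, was not called (0.55, SE 0.16), with medians of 2845 and 3920.3 CPM.

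Genes of innate sensing were higher in adults in part. Of 20 Toll-like receptors and partners, 7 rose, or 35% against 7.98% of all genes. A single one fell, and 0 fell without mouse 1.1 or in DESeq2. Tlr3, the receptor for double-stranded RNA, ranged from 25.4 to 51.7 CPM with a median of 38.3 at P9 and from 162 to 255 CPM with a median of 188 at P200, and rose by 2.27 (SE 0.13, adjusted p = 7.51e-20 in edgeR's quasi-likelihood test). The receptor for lipopolysaccharide rose in its 3 parts, Tlr4 2.46-fold (SE 0.20 on the log2 scale), from a median of 154 to 386 CPM, Cd14 by 1.48 on that scale (SE 0.15), from 352 to 941 CPM, and Ly96 by 1.54 (SE 0.15), from 21.2 to 55.8 CPM. For these 4 genes the ages did not overlap. Tlr12, Tlr13 and Irak3, a brake on this signalling, rose by 1.83, 1.46 and 2.06. Sting1, the sensor of cyclic dinucleotides, rose by 1.72 (SE 0.10), from a range of 223 to 307 CPM to one of 855 to 926 CPM. Ly96 was not called in ELS mice, at 0.88.

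Of 31 cytokine and cytokine receptor genes, 4 rose and 4 fell (12.9% each), and of 23 chemokine and chemokine receptor genes, 6 rose (26.1%) and 3 fell (13.0%), against 7.98% and 18.5% of all genes. Without mouse 1.1, 4 chemokine genes fell. Il6, a cytokine of acute inflammation, ranged from 0 to 1.57 CPM with a median of 0.391 at P9 and up to 22.3 CPM with a median of 18.8 at P200, and rose by 5.17 on the log2 scale (SE 0.57, adjusted p = 1.42e-10 in edgeR's quasi-likelihood test). Tnfsf13b ranged from 0.93 to 5.5 CPM at P9 and from 30 to 56 CPM at P200. Tnfsf8, the ligand of CD30, was at 0 in 10 of 12 P9 mice and at 1.23 to 4.63 CPM in adults. The alarm cytokine Il1a rose by 1.40 (SE 0.22), from a median of 55.9 to 158 CPM. Tnf (0.22, SE 0.46) and Il1b (1.18, SE 0.56, adjusted p = 0.0796) were not called and stayed at medians under 3 CPM at both ages. Without mouse 1.1, Il1b was called at 1.40 (adjusted p = 0.0317 in edgeR's quasi-likelihood test). Csf2ra, the receptor for GM-CSF, fell by 1.58 (SE 0.23), and Cxcl16 and the chemokine-binding receptor Ccrl2 rose by 1.31 and 2.31.

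Genes of antigen presentation were examined by class. Of 13 genes of MHC class I, 1 rose and 0 fell (median log2 fold change 0.39), and of 6 of class II, 4 rose and 1 fell (median 1.86), against 7.98% higher and 18.5% lower over all genes. The difference between the classes was not tested. H2-DMa and H2-DMb1, which load peptides on class II molecules, rose by 1.69 (SE 0.12) and 2.02 (SE 0.11), from medians of 91.6 and 60.8 CPM to 303 and 266 CPM, without overlap. The class II chains themselves were low. H2-Aa was at 0 in 9 of 12 P9 mice and at 0.855 to 25.8 CPM with a median of 1.98 in adults, where mouse 1.1 had the highest value. It rose by 5.75 with and by 4.47 without that mouse (adjusted p = 1.21e-06 and 6.1e-05 in edgeR's quasi-likelihood test). Cd74, the invariant chain, fell by 1.02 (SE 0.29), with overlapping ages, and lost its call when any of 9 mice was left out. Fcgr2b, the inhibitory Fc receptor, rose by 1.18 (SE 0.11), from a range of 200.5 to 303 CPM to one of 559 to 646 CPM.

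Of 26 interferon-stimulated genes, 5 rose and 2 fell in CTR mice (against 7.98% and 18.5% of all genes), and 1 rose and 4 fell in ELS mice. Usp18, a protease that removes the ubiquitin-like protein ISG15 from its targets, ranged from 3.04 to 6.21 CPM at P9 and from 10.1 to 40.2 CPM at P200, without overlap, and mouse 1.1 was the highest adult. It rose by 1.97 (SE 0.31), and by 1.61 without mouse 1.1.

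TGF-β signalling was represented by 28 genes, of which 6 rose and 6 fell, or 21.4% each, against 7.98% and 18.5% of all genes, and 5 fell without mouse 1.1. Beside Tgfbr1 and Itgav, the co-receptor Eng rose by 1.40 (SE 0.24), from a median of 73.3 to 212 CPM, and the inhibitor Smad7, itself a target of the pathway, by 1.46 (SE 0.19), from 6.7 to 19.6 CPM. Targets of the related bone morphogenetic proteins fell, Id1 by 2.60 (SE 0.66) and Id3 by 5.45 (SE 0.70). The ligand Tgfb1 was not called (0.08, SE 0.28), at medians of 7.23 and 8.36 CPM.

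**Figure D5:**
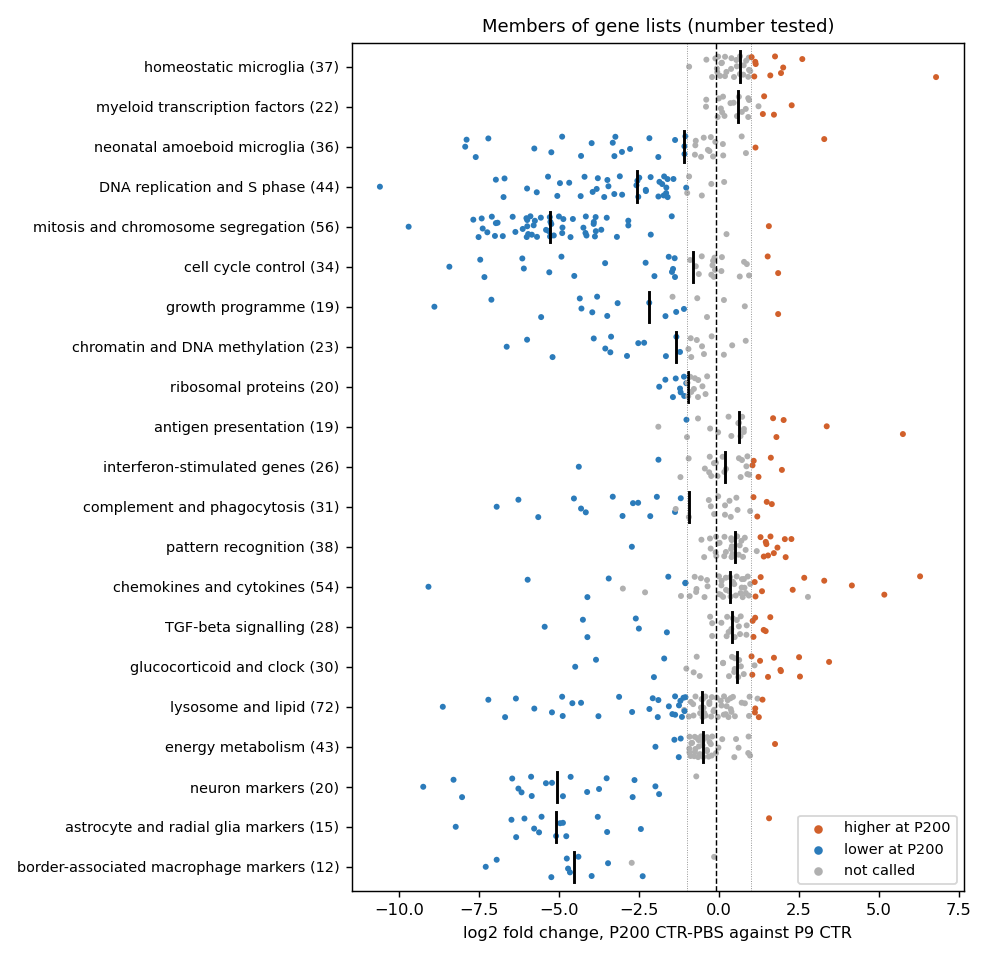
Log2 fold change (P200 CTR-PBS against P9 CTR) of every tested member of 21 gene lists, coloured by call, with the list's median as a black bar, the median of all tested genes as a dashed line and the thresholds of -1 and 1 as dotted lines; genes with no count at P200 are drawn at the floor of 3 counts over the group. Mitosis, replication, neuron, astrocyte and border-associated macrophage lists lie mostly below -1, and homeostatic, transcription factor and pattern recognition lists lie mostly above 0.

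Hormone and neurotransmitter receptors changed in named genes. Of 14 genes of the glucocorticoid receptor and its targets, 5 rose and 4 fell (35.7% and 28.6%, against 7.98% and 18.5% of all genes). Nr3c1, the glucocorticoid receptor, ranged from 45.6 to 68.6 CPM with a median of 58 at P9 and from 134 to 200.3 CPM with a median of 157 at P200, and rose by 1.53 (SE 0.22, adjusted p = 1.13e-07 in edgeR's quasi-likelihood test). Its targets Sgk1 and Tsc22d3 rose by 1.92 (SE 0.16) and 1.94 (SE 0.21), from medians of 237 and 41.1 CPM to 875 and 153 CPM, while the metallothioneins Mt1 and Mt2 fell by 1.71 (SE 0.28) and 4.50 (SE 0.49). Another target, Fkbp5, was not called in CTR mice (0.49, SE 0.21) and was called in ELS mice (1.35). Ddit4 was not called in CTR mice (0.48, SE 0.47, adjusted p = 0.433) and was called in ELS mice (4.07), and these changes differed (interaction, adjusted p = 0.0324 by edgeR's quasi-likelihood test). The adults had been injected 3 h before, and the part of handling and hour of day was not tested.

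Among 22 AP-1 and immediate early genes, 8 rose and 3 fell, and of 17 NF-κB subunits and regulators 4 rose and 1 fell, against 7.98% and 18.5% of all genes. Without mouse 1.1, 9 AP-1 and immediate early genes rose and 2 fell, and 3 NF-κB genes rose. The stress-responsive factor Atf3 rose by 1.70 on the log2 scale (SE 0.24), from a median of 13.2 to 41.8 CPM, and Junb by 1.40 (SE 0.30), from 74.8 to 195 CPM, both without overlap. Egr1 rose by 1.73 (SE 0.34) with overlapping ages, whereas Fos (-0.50, SE 0.57) and Jun (0.46, SE 0.23) were not called. Nfkbia, the inhibitor that NF-κB itself induces, rose 2.30-fold (SE 0.15 on the log2 scale, adjusted p = 3.75e-09 in edgeR's quasi-likelihood test), from a range of 47.9 to 77.5 CPM to one of 104 to 195 CPM. Tissue dissociation is known to induce such genes, and its part was not tested.

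Of 17 clock genes, 5 rose (29.4%) and 0 fell, against 7.98% and 18.5% of all genes. Without mouse 1.1, 3 rose. Hlf, an output gene of the clock, rose by 3.45 (SE 0.56), from a median of 0.796 to 10.1 CPM, whereas Dbp (0.50, SE 0.51) and Per1 (0.69, SE 0.48) were not called.

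Of 24 purine and neurotransmitter receptor genes, 4 rose and 8 fell (16.7% and 33.3%, against 7.98% and 18.5% of all genes), 7 fell without mouse 1.1, and the list's median of 0.18 turned negative, at -0.10, in limma. Cnr2, the cannabinoid receptor of immune cells, rose by 1.33 (SE 0.22). P2rx1, an ATP-gated channel, fell by 2.67 (SE 0.23, adjusted p = 1.16e-13 in edgeR's quasi-likelihood test), from 50.2 to 7.43 CPM, and P2rx7 was not called (0.03, SE 0.14), at medians of 285 and 296 CPM. Trpm2, a calcium channel opened by oxidative stress, rose by 2.95 (SE 0.46), with 1 adult, mouse 1.1, at 1.07 CPM within the P9 range. Tgm2, the enzyme that cross-links matrix proteins, ranged from 0 to 0.859 CPM at P9 and had a median of 39.2 CPM at P200, with every adult higher than every P9 mouse, and rose by 6.72 (SE 0.55).

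Markers of other cells were mostly lower at P200, though not in every list. Over 86 tested markers of 9 other cell types and blood lineages, 65 were called lower and 5 higher (62 and 6 without mouse 1.1), against 18.5% and 7.98% of all genes. Their median change was -4.63 on the log2 scale, and their summed CPM ranged from 2368 to 3116 at P9 and from 1275 to 1371 at P200. Of 20 neuron markers, 19 fell and 0 rose (18 fell without mouse 1.1), and their sum ranged from 149.96 to 357 CPM at P9 and from 5.03 to 35.3 CPM at P200. Stmn2, a protein of neuronal growth cones, fell by 5.85 (SE 0.64), from a median of 26.4 to 0.183 CPM. Syt1, a synaptic vesicle protein, fell by 4.12 (SE 0.56) and Snap25, a presynaptic membrane protein, by 1.99 (SE 0.46). Adults had 0 to 9.65 CPM of Snap25, with mouse 1.1 at 0. Dpysl3, Ncan, Stmn1 and Sox11 belong to genes that neurons or their precursors also express, and the part of such transcripts in their falls was not tested.

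Of 15 astrocyte markers, 14 fell and 1 rose. Gfap, the astrocyte filament, ranged from 23 to 56.5 CPM at P9 and from 0 to 3.34 CPM at P200, and Slc1a2 and Aqp4 had adult medians of 0.85 and 0.0712 CPM. Slc1a3, a glutamate transporter, rose by 1.57 (SE 0.14), from a range of 72.1 to 159 CPM to one of 296 to 503 CPM, and it made up most of the adult sum of that list, which ranged from 229.7 to 546 CPM at P9 and from 303 to 503 CPM at P200. Of 12 tested oligodendrocyte genes 3 rose and 5 fell (25% and 41.7%, against 7.98% and 18.5% of all genes), and 4 fell without mouse 1.1. The defining Mbp was not called (0.38, SE 0.30), with medians of 15.3 and 16.7 CPM. Of 10 endothelial and mural markers 6 fell, among them Cldn5, with adult values of 0 to 0.444 CPM, and 1 rose without mouse 1.1. The sum of these markers did not separate the ages, at 30.8 to 79.7 CPM at P9 and 39.4 to 71.9 CPM at P200, and most of the adult sum was Pecam1, an adhesion molecule that leukocytes share (median 45.6 CPM).

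Markers of border-associated macrophages also fell. Of 12 tested, 10 were called lower (83.3%, against 18.5% of all genes) and 0 higher. Their summed CPM was 747 to 1127 at P9 and 156 to 205 at P200. Mrc1 supplied most of the counts of the P9 sum. The more restricted markers Cd163, Lyve1 and F13a1 were already low at P9, with medians of 0.886, 2.1 and 4.15 CPM, and had adult medians of 0, 0 and 0.273 CPM. Lymphocyte markers were present through a pair of B-cell genes. Ighm, the immunoglobulin mu heavy chain, ranged from 601 to 797 CPM at P9 and from 446 to 555 CPM at P200 and was not called (-0.51, SE 0.10), and Cd79b, a subunit of the B-cell receptor, fell by 1.71 (SE 0.23), from a median of 153 to 45.5 CPM. The B-cell markers Cd79a and Ms4a1 were at 0.675 CPM or less in every mouse. The 16 lymphocyte and mast cell markers summed to 753 to 960 CPM at P9 and to 485 to 616 CPM at P200. Of the monocyte, neutrophil and erythroid markers, Ly6c2 and Ly6g had no count at either age, S100a8 and S100a9 were below the filter, and Hba-a1 reached 12.5 CPM in 1 P9 mouse with a P9 median of 0.179. Ccr2, a receptor of monocytes, rose by 2.67 (SE 0.63), from a median of 0.621 to 5.67 CPM. It was the only 1 of 4 tested monocyte and neutrophil markers to rise, and the other 3 fell. Of 5 tested erythroid markers 4 fell, as did 3 of 4 tested lymphocyte and mast cell markers, against 18.5% of all genes.

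Variation between mice of the same age was largest in different genes at the 2 ages. At P9, among 8192 genes averaging at least 10 CPM, the most variable named genes included Fnta, a subunit of farnesyltransferase, with 8.36 to 86.4 CPM (median 33.6), Sumf1, which activates sulfatases, with 24.5 to 193 CPM (median 106), and Mgat2, an enzyme of protein glycosylation, with 32 to 242 CPM (median 116). None of these 3 was called between the ages. At P200 the 10 most variable genes were all at 0 in mouse 1.1, led by the autophagy receptor Nbr1, whose adult median was 77.1 CPM, the translation factor Eif4b (56.8 CPM) and the insulin-degrading enzyme Ide (46.5 CPM). Without that mouse, a choice made after seeing the data, Sumf1 was again among the 10, with 10.6 to 119 CPM, beside Cdk5rap1, Marcksl1, Phka1, Syap1, Golim4, Cdc42ep4 and 3 unnamed transcripts that were all highest in the same mouse.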

How the data were processed

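RNA of hippocampal microglia sorted from single mice was sequenced, and the files hold whole-number read counts per gene that the authors deposited without normalization. The authors demultiplexed the reads (bcl2fastq 2.20), trimmed adapters (cutadapt 2.10), aligned them to GRCm39 with STAR and counted those unique to the exons of a gene with HTSeq 0.11.0; the annotation release and strand setting are not given in the sources used here. The counts summed to 13605733 to 31020979 per mouse over the 19 mice compared.

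A gene entered the tests (16696 did) if over 2 of the 50 mice reached 1 CPM for it. Counts of all 50 mice were scaled by TMM and fitted in edgeR 4.0.16 (R 4.3.3) with a model of 6 groups. These were P9 CTR, P9 ELS, and P200 CTR and P200 ELS mice injected with either PBS or LPS. The LPS mice thus took part in the filter, the scaling and the estimate of spread. P200 CTR-PBS was tested against P9 CTR mice by the quasi-likelihood test with Benjamini-Hochberg adjustment. A call needed an adjusted p under 0.05 and a log2 fold change beyond 1. Mean log2 CPM and the spread between mice were taken from log2 CPM values with a prior count of 2. TPM used the merged exon length of each protein-coding gene in the GENCODE annotation of GRCm39, which held 52610 of the 53700 gene IDs. The fit was also run on simulated counts that were set to vary less between mice than the real counts. That run does not measure the error rate in these data. Summaries used Python 3.11.15 and library measures an exact permutation test (scipy 1.17.1). No 2 libraries agreed within sampling noise. Mice whose label numbers share the digits before the point were taken as nestmates, which the labels do not state. By this reading the adults came from 5 nests and the P9 mice from 5.

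The 49 gene lists and the named genes were chosen with earlier results of these data known. Genes are named where they had the 10 largest rises or falls without overlap and a mean log2 CPM of at least 1, were among the 10 most abundant called per direction, belonged to a list, were among the 10 highest per kilobase, or were among the 10 most variable of an age; a few of them are not reported here. Promoters belong to the 3 called members of mitosis with the largest fall and the 3 called genes with the largest rise that the reference table held. Alternatives were other tests (DESeq2 1.42.0 and limma 3.58.1 among them), scalings, filters, sums per nest, and leaving out each of the 19 mice compared. They were run for the change in CTR mice alone. Promoter sequences came from RefSeq on GRCm38.p6, another build than that of the counts, matched by symbol for 11284 of the tested genes, and no coordinate was carried between the builds.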

Additional observations from a re-analysis of the deposited data

Results flagged for a closer look

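A mouse stood apart from the other adults in a share of the values examined. The test divides the gap between the extreme adult and its nearest neighbour by the whole adult range, and chance marks about 1 in 20 groups. Of 163 values examined, 15 were marked, 13 of them through mouse 1.1.

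In mouse 1.1 the number of genes detected was 12854, against 17424 or more in the others, a gap of 0.665 of the range. It was the lowest adult for Actb (2240.3 CPM, gap 0.779), Il1a (102 CPM, gap 0.572) and Pros1 (1124 CPM, gap 0.576), and it was at 0 for Ide (gap 0.653) and Nbr1 (gap 0.63). It was the highest adult for H2-Aa (25.8 CPM, gap 0.776), Cd74 (96.4 CPM, gap 0.73), Mt1 (66.2 CPM, gap 0.759), Crybb1 (548 CPM, gap 0.596), Slc1a3 (503 CPM, gap 0.578), Tlr3 (255 CPM, gap 0.635) and Usp18 (40.2 CPM, gap 0.661). Without it Actb, Il1a, H2-Aa, Cd74, Mt1, Slc1a3, Tlr3 and Usp18 were still called in the same direction, and Crybb1 was called as well, at -1.03. Another adult had the highest Ddit4 (18 CPM, gap 0.626), and a different one the highest F13a1 (4.53 CPM, gap 0.622). The part of RNA quality, depth or cell content in these gaps was not tested.

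The change of Ddit4 with age differed between rearing groups, by 3.596 on the log2 scale in ELS minus CTR mice (adjusted p = 0.0324 for the interaction in edgeR's quasi-likelihood test over all genes). Ddit4, which restrains the growth kinase mTOR and responds to glucocorticoids, had log2 fold changes of 4.07 in ELS and 0.48 in CTR mice.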

How the results depend on the processing

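The 1333 genes higher and 3083 lower at P200 became 476 and 1963 when edgeR tested against a log2 fold change of 1 instead of 0, and the 97 list members higher became 57. With the threshold lowered to 0.1, 2911 genes and 195 list members were higher. Other tests, scalings and filters kept these counts within 1.5 times, at 1042 to 1963 genes higher and 2589 to 4184 lower. DESeq2 gave 1391 and 3147, sums per nest 1042 and 2589, and no filter on low counts 1963 and 4184. Leaving out in turn 1 of the 19 mice compared gave 1279 to 1385 genes higher and 2962 to 3078 lower, with 93 to 101 and 292 to 303 list members. The share of calls that were lower, 69.8%, was 80.5% under the test against 1 and 60.4% with the lower threshold. The median log2 fold change of all genes was -0.09, and it was -0.22 in limma with the nest as a random effect. Relative to these medians the lysosomal list turned, from below (-0.17) to above (-0.16). Of the named genes, those with a log2 fold change near 1 lost their call most often, among them Cd74, Ccl3, Gpr183, Ctss and Actb under the test against 1, and no called gene among them turned its sign. No paired analysis was possible because the ages share a single mouse number, which belongs to different animals.

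The limits are those of the design. Age goes with cohort, injection and Percoll, the p-values treat all mice as separate, whatever nest they came from. Genes under 1 CPM at both ages rest on few reads. A gene at 0 in all adults was bounded by 3 counts over the group, or 0.02 CPM.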
